A study of Mus musculus with 8 samples.

Results

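The dual-specificity MAP kinase phosphatases (DUSPs) described here are *Dusp1*, *Dusp2*, *Dusp4*, *Dusp5*, *Dusp6*, *Dusp7*, *Dusp8*, *Dusp10* and *Dusp16*. They were taken by symbol from the table of expected read counts, 9 of its 50615 genes, and all 9 were among the 17625 genes tested. RNA came from bone marrow-derived macrophages (BMDMs), which are macrophages grown in culture from marrow cells of C57BL/6 mice. *Ncoa6*-KO BMDMs came from *Ncoa6* fl/fl LysM-CRE mice, in which Cre recombinase is made from the lysozyme locus of myeloid cells and removes a floxed part of *Ncoa6*, a gene for a transcriptional coactivator. *Ncoa6*-sufficient BMDMs came from *Ncoa6* fl/fl mice without Cre and are the samples labelled WT, so both genotypes carry the floxed alleles and only the knockout carries Cre. In a difference between the genotypes, the loss of *Ncoa6* and the Cre in the lysozyme locus therefore cannot be told apart. All cells had grown for 6 days in M-CSF at 20 ng/ml. They then received medium only or were primed with lipopolysaccharide (LPS, 100 ng/ml, 4 h) before monosodium urate crystals (MSU, 200 µg/ml, 2 h) were added. There were 2 libraries in each of the 4 groups, which the study's methods describe as coming from separate mice. The age and sex of the mice are not given in the sources used here.

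MAP kinases (ERK, JNK and p38) carry signals from Toll-like receptors and other receptors to the nucleus, and they are active only while a threonine and a tyrosine in their activation loop are both phosphorylated. DUSPs remove both phosphates. Many DUSP genes are themselves switched on by MAP kinase signalling and so form a negative feedback. In macrophages DUSP1 is the best known of them, as a brake on p38 and JNK after LPS. Nuclear and inducible forms (DUSP1, DUSP2, DUSP4 and DUSP5) are told apart from cytoplasmic forms that prefer ERK (DUSP6 and DUSP7) and from forms that prefer JNK and p38 (DUSP8, DUSP10 and DUSP16).

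The letters upstream of the starts of 5 members are shown first, to set 4 genes that rose with LPS + MSU beside 1 that fell. They come from RefSeq on build GRCm38.p6, which had a window for 8 of the 9 members, all but *Dusp4*. Each window ran from 250 bases before the annotated start to 50 bases after it. Capitals mark matches, on either strand, to the full cAMP response element (CRE, TGACGTCA), to its shorter core (TGACG, the short CRE) or to the CArG box. CREs are bound by CREB and related factors, and the CArG box by serum response factor. Bases in exons of coding genes in the GENCODE annotation are left out.

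Dusp1: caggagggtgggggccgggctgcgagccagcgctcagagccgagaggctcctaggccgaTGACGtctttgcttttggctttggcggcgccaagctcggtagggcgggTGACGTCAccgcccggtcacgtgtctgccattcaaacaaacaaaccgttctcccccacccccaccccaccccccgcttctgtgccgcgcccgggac
Dusp8: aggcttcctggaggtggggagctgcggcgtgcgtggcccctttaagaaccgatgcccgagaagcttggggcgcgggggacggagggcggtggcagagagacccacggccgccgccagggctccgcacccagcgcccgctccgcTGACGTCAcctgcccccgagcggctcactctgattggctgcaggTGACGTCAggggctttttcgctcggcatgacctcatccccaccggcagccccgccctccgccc
Dusp5: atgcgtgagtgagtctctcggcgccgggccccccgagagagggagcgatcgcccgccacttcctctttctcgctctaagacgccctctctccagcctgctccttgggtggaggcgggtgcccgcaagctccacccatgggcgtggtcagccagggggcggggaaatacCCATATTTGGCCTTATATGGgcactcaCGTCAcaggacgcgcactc
Dusp2: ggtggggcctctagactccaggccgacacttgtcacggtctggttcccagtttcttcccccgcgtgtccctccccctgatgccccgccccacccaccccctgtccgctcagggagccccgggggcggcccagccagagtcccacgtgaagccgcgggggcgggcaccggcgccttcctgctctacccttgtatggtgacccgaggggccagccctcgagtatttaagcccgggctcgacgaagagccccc
Dusp7: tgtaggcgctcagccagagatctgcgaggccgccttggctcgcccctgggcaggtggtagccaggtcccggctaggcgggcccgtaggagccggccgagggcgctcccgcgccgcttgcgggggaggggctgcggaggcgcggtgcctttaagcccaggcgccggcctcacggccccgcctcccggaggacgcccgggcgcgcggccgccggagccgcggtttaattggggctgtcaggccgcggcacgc

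The stretch of *Dusp1* lies at chr17:26508520-26508722 on the minus strand, in an intron of longer annotated transcripts of the gene, and ends 48 bases before the start. That of *Dusp8* is chr7:142095285-142095534 on the minus strand, also in an intron of a longer transcript. The plus-strand stretches are chr19:53528895-53529108 for *Dusp5*, ending 37 bases before its start, chr2:127335909-127336158 for *Dusp2* and chr9:106368382-106368631 for *Dusp7*. *Dusp1* held a full CRE at −143 to −136 and a further short CRE at −191 to −187, counted in bases from the start. *Dusp8* held a pair of full CREs at −107 to −100 and −63 to −56. Full CREs stood in 2 of the 8 windows, against 1.79% of the 32851 windows of all genes. *Dusp5* held 2 CArG boxes side by side, from −82 to −73 and from −72 to −63, a motif in 1.63% of all windows, and a short CRE at −55 to −51. The short CRE, which every full CRE contains, was present in 5 of the 8 windows against 20.8% of all, *Dusp16* (−70 to −66) and *Dusp2* (6 to 10 bases past the start) being the others. *Dusp7* and *Dusp6*, which fell with LPS + MSU in *Ncoa6*-sufficient BMDMs, had no match, and neither had *Dusp10*, which rose. The letters of the AP-1 motif (TGANTCA), the NF-κB motif and the TATA box (TATAAA) were in none of the 8 windows, and in 7.81%, 8.46% and 13.6% of all. These matches describe letters only, in windows of 57.3% to 78.7% G and C for the members. The G and C content of all windows was not measured, and a link of the matches to the response was not tested.

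**Figure D1:**
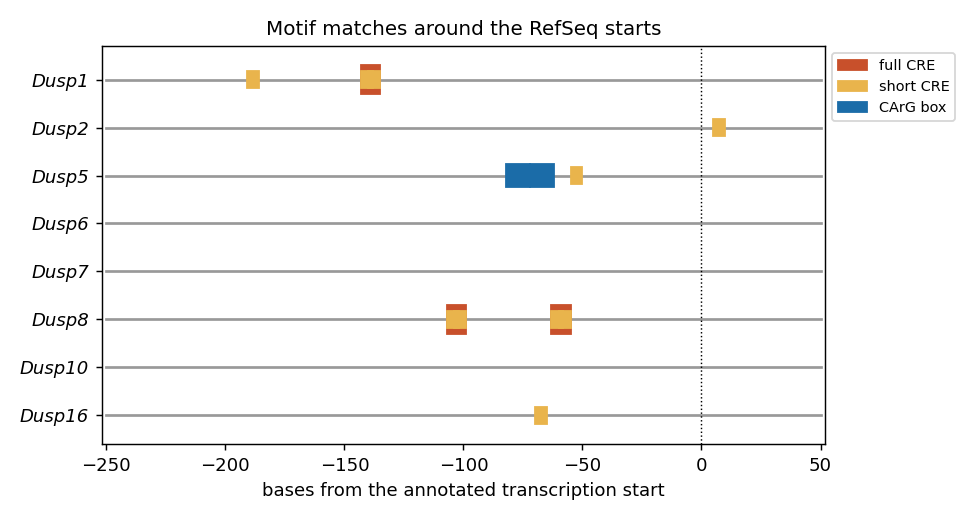
Motif matches in the RefSeq windows of the 8 members that have one; the x axis gives bases from the annotated start (dotted line), each grey line is a window, and blocks are matches (short CREs are drawn over the full CREs that contain them). *Dusp8* has 2 full CREs and *Dusp1* has 1; the adjoining CArG boxes of *Dusp5* appear as one block.

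Expected counts summed to between 25281955 and 33673552 per library, with TMM factors of 0.766 to 1.29. *Ncoa6* fell in the knockout by 1.05 on the log2 scale with medium alone and by 1.18 with LPS + MSU (adjusted p = 0.00236 and 0.00189). All 10 macrophage markers were present, while the 8 T and NK cell markers summed to at most 0.142 CPM (counts scaled to the library size) and the 6 mast cell or basophil markers to at most 0.0587 in any library. Several marker sums moved with the stimulus: those of dendritic cells ranged over 0.645 to 0.877 CPM at rest and 5.70 to 9.49 with LPS + MSU, those of neutrophils over 15.2 to 17.5 and 25.7 to 33.8, and those of endothelial cells over 117 to 190 and 222 to 318. Of these lists 3 of 7, 4 of 10 and 2 of 6 genes had fewer than 10 counts in each library, and *Ly6g*, which defines neutrophils, was at 0 in all but one. Osteoclast marker sums ranged over 60.9 to 77.5 at rest and 82.5 to 93.7 with LPS + MSU in *Ncoa6*-sufficient libraries. In *Ncoa6*-KO libraries they ranged over 65.1 to 82.6 and 89.5 to 104, although *Atp6v0d2* of this list was lower with the stimulus in both genotypes. Stromal sums at rest were 14.1 to 16.3 in *Ncoa6*-sufficient and 5.19 to 17.0 in *Ncoa6*-KO libraries. With LPS + MSU some sums also differed between *Ncoa6*-sufficient and *Ncoa6*-KO libraries: 7.47 to 9.49 against 5.70 to 6.63 for dendritic cells, 1.13 to 1.22 against 0.382 to 0.446 for B cells and 31.9 to 33.9 against 12.03 to 29.2 for stromal cells. Of the B cell list 5 of 6 genes had fewer than 10 counts in each library. The stromal sum of 12.03 was that of the first *Ncoa6*-KO library, where *Col1a1* plus *Col1a2* stood at 5.08 CPM against 21.9 in the second. The sum of the macrophage markers differed with genotype. Without *Lyz2*, whose locus carries the Cre, it was 6848 and 7006 CPM in *Ncoa6*-sufficient against 5327 and 6202 in *Ncoa6*-KO libraries at rest. With LPS + MSU it was 10445 and 10971 against 8755 and 9502. Not every macrophage marker followed this sum. *Fcgr1* was lower in the knockout in both conditions, while *Mrc1* and *Cd68* overlapped between the genotypes in both. At rest *Mrc1* stood at 660 and 681 against 672 and 602 CPM. *Mertk* overlapped at rest and *Cd14* with LPS + MSU. The part of any of these markers in the differences between genotypes or with the stimulus was not tested, and in bulk RNA fewer cells of a type cannot be told apart from less RNA per cell.

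The level of each DUSP is given below as normalized counts, which are counts scaled to a common library size and can be compared between libraries for 1 gene, and, between genes, as CPM per kb of exon. Exon length was that of all annotated exons of a gene together, from 2003 bases for *Dusp2* to 7798 for *Dusp16*. Exons that these cells do not use would lower a level per kb, which was not tested. Orders and shares between genes depend on these lengths. Resting *Ncoa6*-sufficient BMDMs were dominated by *Dusp7*, at 13.6 CPM per kb, with *Dusp4* next at 7.05. *Dusp1* (4.90) and *Dusp6* (4.76) followed and overlapped between libraries. *Dusp2* (1.73), *Dusp5* (1.38), *Dusp16* (1.38), *Dusp10* (0.927) and *Dusp8* (0.201) were lower, and *Dusp5* and *Dusp16* overlapped. Resting *Ncoa6*-KO BMDMs had the same 2 genes on top, *Dusp7* at 12.6 and *Dusp4* at 10.1 CPM per kb, followed by *Dusp6* (4.20) and *Dusp1* (3.495), which did not overlap there. Below them stood *Dusp16* (1.64) and *Dusp2* (1.53), which overlapped, *Dusp10* (0.896), *Dusp5* (0.663) and *Dusp8* (0.375).

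After LPS + MSU the order changed, and *Dusp1* led in both genotypes. In *Ncoa6*-sufficient BMDMs it reached 67.2 CPM per kb, ahead of *Dusp2* (32.0), *Dusp4* (12.1), *Dusp16* (7.86) and *Dusp7* (5.12), none of which overlapped its neighbour. *Dusp10* (2.95), *Dusp5* (2.94) and *Dusp6* (2.63) could not be ranked, each overlapping the next, and *Dusp8* was last at 0.541. In *Ncoa6*-KO BMDMs *Dusp1* stood at 37.9, *Dusp2* and *Dusp4* overlapped at 17.8 and 17.6, and *Dusp16* followed at 5.75. *Dusp6* (3.24) overlapped *Dusp7* (3.05), *Dusp10* (2.04) overlapped *Dusp5* (1.71), and *Dusp8* reached 0.991.

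The make-up of the family by role moved with the stimulus. The nuclear inducible genes held 42.3% and 41.6% of the summed level per kb in the resting *Ncoa6*-sufficient libraries and 87.4% and 83.3% after LPS + MSU. The cytoplasmic ERK phosphatases went the other way, from 51.1% and 51.0% to 4.98% and 7.00%. The JNK and p38 phosphatases held 6.55% and 7.45% at rest and 7.65% and 9.74% afterwards. In *Ncoa6*-KO libraries the nuclear inducible genes went from 44.5% and 44.4% to 81.9% and 84.4%, and the cytoplasmic ERK phosphatases from 47.4% and 47.3% to 7.25% and 6.74%. The JNK and p38 phosphatases of the knockout held 8.12% and 8.27% at rest and 10.8% and 8.82% after LPS + MSU. Of the nuclear inducible genes only *Dusp1* and *Dusp2* gained share in *Ncoa6*-sufficient libraries. *Dusp1* went from 13.4% and 13.9% to 53.1% and 46.5%, and *Dusp2* from 4.69% and 4.92% to 24.8% and 22.9%. The share of *Dusp4* fell there from 20.1% and 19.1% to 7.18% and 11.9%, and that of *Dusp5* from 4.05% and 3.65% to 2.32% and 2.04%. In *Ncoa6*-KO libraries that of *Dusp4* fell too. Summed over the 9 genes, the level per kb was 37.0 and 34.8 in resting *Ncoa6*-sufficient and 34.8 and 36.3 in resting *Ncoa6*-KO libraries, and after LPS + MSU 158 and 109 against 84.3 and 96.0. The summed levels of the genotypes thus overlapped at rest and did not after LPS + MSU. These shares and sums are descriptions with no test.

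**Figure D2:**
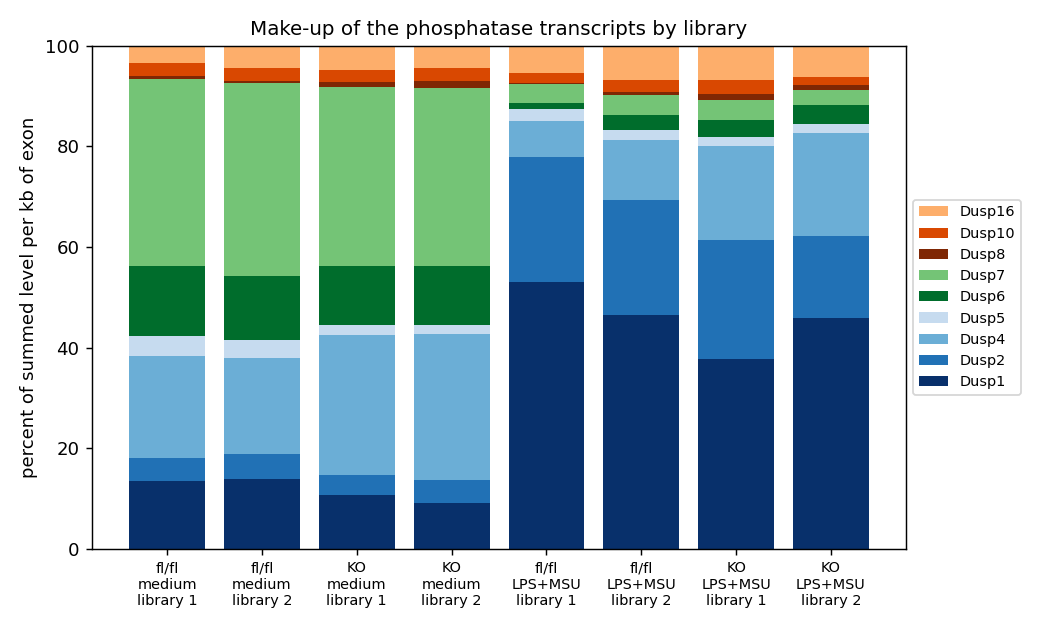
Percent of the summed level per kb that each DUSP holds in each of the 8 libraries (y axis, 0 to 100%), with nuclear inducible genes in blue, cytoplasmic ERK phosphatases in green and JNK and p38 phosphatases in orange and brown. *Dusp7* fills 35.4% to 38.4% of the resting libraries, and *Dusp1* 37.8% to 53.1% of the stimulated ones.

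To see how the phosphatases answered the inflammatory stimulus, LPS + MSU was compared with medium alone within each genotype. All 9 members changed in *Ncoa6*-sufficient BMDMs, with 7 higher and 2 lower, where 55.2% of all tested genes were called (24.7% higher and 30.5% lower). In *Ncoa6*-KO BMDMs 8 of 9 were called, with 7 higher and 1 lower, where 53.1% of all genes were called (25.2% higher and 27.9% lower). The member median of the log2 fold change was 1.42 for the *Ncoa6*-sufficient and 1.36 for the *Ncoa6*-KO cells, against −0.12 and −0.07 over all genes. Libraries of medium and LPS + MSU did not overlap for any member in either genotype, a pattern that 78.5% and 76.5% of all genes showed. The marker sums of dendritic cells, neutrophils and endothelial cells were higher in every stimulated library as well, as given above. Single markers did not all follow their sum. Of the endothelial list *Kdr* rose in both genotypes, while *Vwf* fell in both. *Vwf* went from 99.3 and 110.3 to 57.4 and 82.3 CPM in *Ncoa6*-sufficient libraries. In *Ncoa6*-KO libraries it went from 177.0 and 134.5 to 111.6 and 117.4 CPM.

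*Dusp2*, a nuclear phosphatase prominent in activated immune cells, rose most. Its normalized counts were 102 and 100.6 in resting and 2298 and 1467 in stimulated *Ncoa6*-sufficient libraries, and 83.4 and 96.6 against 1167 and 923 in *Ncoa6*-KO libraries. The log2 fold change was 4.21 (SE 0.219, adjusted p = 3.18e-08) in *Ncoa6*-sufficient and 3.54 (SE 0.220, adjusted p = 1.32e-07) in *Ncoa6*-KO cells. *Dusp1*, the p38 and JNK phosphatase with the full CRE shown above, was at 483 and 469 at rest and at 8128 and 4927 after LPS + MSU in *Ncoa6*-sufficient libraries. The corresponding *Ncoa6*-KO counts were 360 and 319 at rest and 3093 and 4270 with the stimulus. Every stimulated library was far above every resting one, with log2 fold changes of 3.78 (SE 0.232) and 3.44 (SE 0.232). In fold terms the rise was 13.7-fold and 10.8-fold for *Dusp1* and 18.5-fold and 11.7-fold for *Dusp2*.

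*Dusp4* and *Dusp5*, nuclear phosphatases of ERK, rose less. *Dusp4* counted 599 and 535 at rest and 910 and 1040 after LPS + MSU in *Ncoa6*-sufficient libraries, and 774 and 849 against 1261 and 1573 in *Ncoa6*-KO libraries. *Dusp5* counted 109 and 92.0 at rest and 266 and 161 after LPS + MSU in *Ncoa6*-sufficient libraries. In *Ncoa6*-KO libraries *Dusp5* counted 51.4 and 44.8 at rest and 119 and 129 with the stimulus. Both genes were higher in each stimulated library than in the resting libraries of the same genotype, with log2 fold changes of 0.78 and 0.80 for *Dusp4* and of 1.08 and 1.36 for *Dusp5* (adjusted p of 0.00192 or less). These 2 rises depend on the scaling. With library totals in place of TMM the median of all genes shifted by −0.67 in *Ncoa6*-sufficient and −0.63 in *Ncoa6*-KO cells, and *Dusp4* was then at 0.11 and 0.17 (adjusted p = 0.488 and 0.278) and *Dusp5* at 0.41 and 0.72 (adjusted p = 0.130 and 0.0239).

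The JNK and p38 phosphatases all rose. *Dusp16* counted 284 and 348 at rest and 1913 and 1683 after LPS + MSU in *Ncoa6*-sufficient libraries, and 380 and 370 against 1295 and 1335 in *Ncoa6*-KO libraries. Its log2 fold change was 2.51 (SE 0.117) in *Ncoa6*-sufficient and 1.81 (SE 0.115) in *Ncoa6*-KO cells. *Dusp10* counted 86.3 and 79.1 against 287 and 240 in *Ncoa6*-sufficient libraries, and 76.5 and 83.4 against 213 and 151 in *Ncoa6*-KO libraries. Its log2 fold change was 1.67 (SE 0.195) and 1.19 (SE 0.199), so that the stimulated libraries of each genotype lay clear of the resting ones. *Dusp8*, the gene with a pair of full CREs and the least abundant member, counted 30.8 and 26.7 against 70.7 and 84.0 in *Ncoa6*-sufficient libraries, and 43.1 and 64.1 against 150 and 133 in *Ncoa6*-KO libraries. Its log2 fold change was 1.42 (SE 0.269) in the former and 1.41 (SE 0.240) in the latter.

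The cytoplasmic ERK phosphatases were the 2 members that fell. *Dusp7*, the leading DUSP of resting BMDMs, went from 1358 and 1314 to 571 and 437 in *Ncoa6*-sufficient libraries and from 1218 and 1265 to 319 and 281 in *Ncoa6*-KO libraries. It fell by 1.41 (SE 0.124) and by 2.05 (SE 0.130) on the log2 scale, 2.65-fold and 4.13-fold. *Dusp6*, an ERK phosphatase and a common readout of ERK activity, went from 472 and 402 to 188 and 295 in *Ncoa6*-sufficient libraries, a log2 fold change of −0.86 (SE 0.191, adjusted p = 0.00269), or −0.52 (adjusted p = 0.0354) without the first stimulated library. In *Ncoa6*-KO libraries *Dusp6* stood at 376 and 395 at rest and at 264 and 332 with the stimulus, −0.37 (SE 0.188, adjusted p = 0.119), and with library totals −1.01 (adjusted p = 8.58e-04). *Dusp9*, the one typical MAP kinase phosphatase outside the list and the closest relative of DUSP6 and DUSP7 by role, also fell, by 1.28 and by 1.21.

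**Figure D3:**
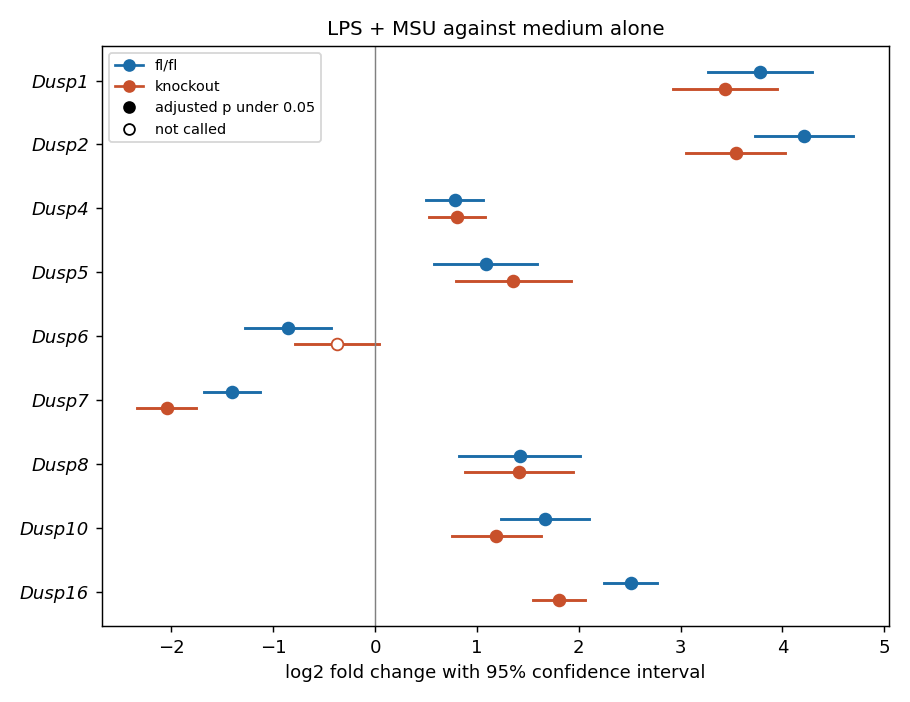
Log2 fold change of each DUSP with LPS + MSU against medium alone (x axis) in *Ncoa6*-sufficient (blue) and *Ncoa6*-KO (orange) BMDMs, with 95% confidence intervals from edgeR; filled points were called at an adjusted p under 0.05. 7 genes lie to the right of 0 in both genotypes, *Dusp7* lies to the left in both, and *Dusp6* in the knockout is the only open point.

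To see how the phosphatases differed between the genotypes, *Ncoa6*-KO and *Ncoa6*-sufficient BMDMs were compared with LPS + MSU. *Dusp4* was higher in *Ncoa6*-KO BMDMs and *Dusp2*, *Dusp7* and *Dusp16* were lower, 4 of 9 members, where 3.59% of all genes were called (1.96% higher and 1.63% lower). The genotypes did not overlap for 8 of the 9 members, all but *Dusp6*, against 47.4% of all genes. The median log2 fold change of the members was −0.53, against 0.00 over all genes. The counts are those given above, since this comparison uses the same stimulated libraries as the comparisons with medium.

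*Dusp7* fell by 0.75 (SE 0.136, adjusted p = 0.0159), with 319 and 281 counts in *Ncoa6*-KO against 571 and 437 in *Ncoa6*-sufficient libraries, and was called in 13 of 16 alternative analyses. *Dusp2* fell by 0.85 (SE 0.184, adjusted p = 0.0331), from 2298 and 1467 to 1167 and 923 counts, and was called in 11 of 16, with a change of −0.50 without the first and −1.15 without the second *Ncoa6*-sufficient library with LPS + MSU. *Dusp16* fell by 0.45 (SE 0.109, adjusted p = 0.0488), called in 6 of 16, and *Dusp4* rose by 0.54 (SE 0.125, adjusted p = 0.0419), called in 8 of 16. In fold terms these were decreases of 1.68-fold, 1.80-fold and 1.37-fold and an increase of 1.45-fold. The direction of all 4 was the same in each alternative. With 1 library left out *Dusp7* ranged over −0.94 to −0.55, *Dusp16* over −0.55 to −0.37 and *Dusp4* over 0.37 to 0.67. DESeq2 called 5 members, these 4 and *Dusp1*, where it called 4.82% of all genes, and limma-voom called *Dusp2* and *Dusp7*, where it called 2.5%. Without a filter on low counts 7 members were called, where 6.54% of all genes were. None of the 4 was called without the first *Ncoa6*-sufficient or without the second *Ncoa6*-KO library with LPS + MSU, or with only the 4 stimulated libraries in the fit, and 1 member (*Dusp7*) was called without either *Ncoa6*-sufficient library with medium. The calls of *Dusp2* and *Dusp7* remained without the first *Ncoa6*-KO library with LPS + MSU, the second *Ncoa6*-sufficient one or either *Ncoa6*-KO library with medium. The first *Ncoa6*-sufficient library was the higher of its pair for *Dusp1*, *Dusp2*, *Dusp5*, *Dusp7*, *Dusp10* and *Dusp16*.

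The other members did not pass by edgeR. *Dusp1* was at 3093 and 4270 counts in *Ncoa6*-KO against 8128 and 4927 in *Ncoa6*-sufficient libraries, a log2 fold change of −0.83 (SE 0.206, adjusted p = 0.0555). It was called lower in 5 of 16 alternatives (DESeq2, its size factors, no filter, the replicate block and without the second *Ncoa6*-sufficient library with LPS + MSU), and its change ran from −1.16 without that library to −0.43 without the first. *Dusp5* was at −0.79 (SE 0.236, adjusted p = 0.106), *Dusp8* at 0.87 (SE 0.243, adjusted p = 0.0837) and *Dusp10* at −0.53 (SE 0.190, adjusted p = 0.174). *Dusp5* was called in 3 alternatives and ran from −1.12 to −0.39 without the same 2 libraries, *Dusp8* was called in 2 and *Dusp10* in 0. The libraries of the genotypes were apart for each of these 4 genes. *Dusp6* overlapped between the genotypes at 0.30 (SE 0.200, adjusted p = 0.493). At an unadjusted p under 0.05, 8 of 9 members passed against 17.4% of all genes.

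With medium alone no member was called by edgeR, where 1.88% of all genes were (0.573% higher and 1.3% lower). At an unadjusted p under 0.05, 3 members passed (*Dusp4*, *Dusp5* and *Dusp8*) against 12.8% of all genes, while DESeq2 called *Dusp4* and *Dusp5*, where it called 2.81% of all genes, and limma-voom none, where it called 2.25%. Without a filter 4 members were called, where 4.67% of all genes were. *Dusp5* had the largest difference, with 51.4 and 44.8 counts in *Ncoa6*-KO against 109 and 92.0 in *Ncoa6*-sufficient libraries, a log2 fold change of −1.06 (SE 0.249, adjusted p = 0.0635). *Dusp4* was at 0.52 (SE 0.125, adjusted p = 0.0714) and *Dusp8* at 0.88 (SE 0.264, adjusted p = 0.145). *Dusp1* was at −0.48 (adjusted p = 0.405) and *Dusp16* at 0.25 (adjusted p = 0.413), while *Dusp2*, *Dusp6*, *Dusp7* and *Dusp10* lay between −0.18 and −0.05. The genotypes were apart for 8 of 9 members, all but *Dusp10*, against 43.1% of all genes. *Dusp4* and *Dusp5* were each called in 5 of 16 alternatives and *Dusp1* and *Dusp8* in 1, and dropping 1 library left 0 to 1 members called.

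**Figure D4:**
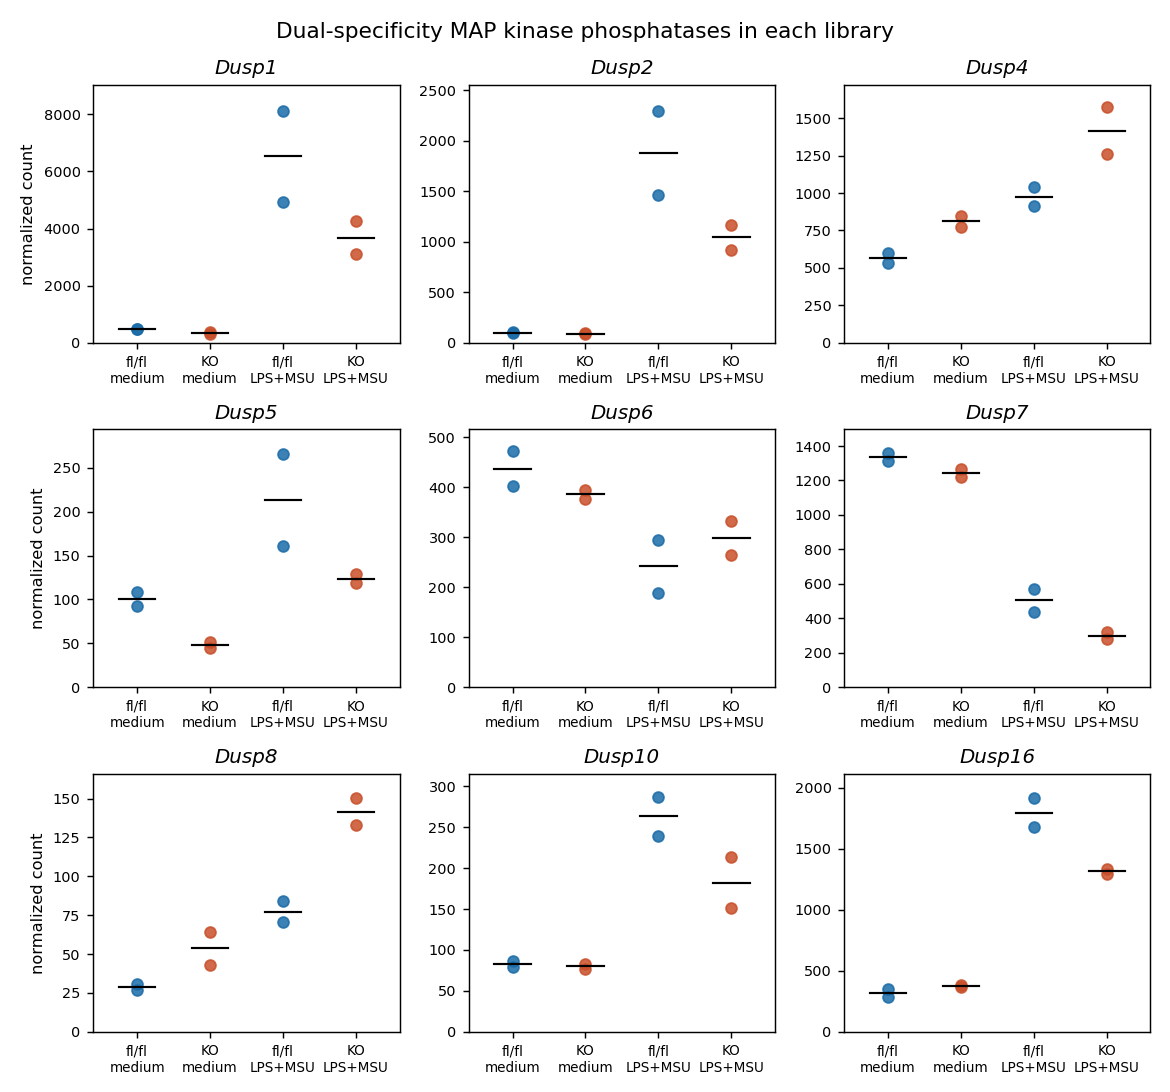
Normalized counts (y axis, from 0, a scale for each gene) of the 9 members in each library, *Ncoa6*-sufficient (fl/fl) in blue and *Ncoa6*-KO in orange; points are libraries and bars the means of 2 libraries. *Dusp4* and *Dusp8* are higher in the knockout in both culture conditions, and *Dusp1*, *Dusp5*, *Dusp7* and *Dusp2* lower in both. For *Dusp7* and *Dusp2* the log2 fold changes were −0.11 and −0.18 at rest and −0.75 and −0.85 after LPS + MSU. The difference between the conditions was not called for either gene (adjusted p = 0.536 and 0.841 by edgeR).

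Because several members differed by about the same amount in both culture conditions, the mean of the 2 knockout effects was tested in the same fit, a contrast chosen after those values had been seen. By this measure 5 of 9 members were called, where 8.3% of all genes were (3.71% higher and 4.59% lower). *Dusp4* (0.53, SE 0.0884, adjusted p = 0.00578) and *Dusp8* (0.88, SE 0.179, adjusted p = 0.0140) rose. *Dusp5* (−0.92, SE 0.172, adjusted p = 0.00895), *Dusp1* (−0.66, SE 0.152, adjusted p = 0.0248) and *Dusp7* (−0.43, SE 0.0893, adjusted p = 0.0155) fell. For *Dusp7* the 2 estimates were unalike, −0.11 with medium alone and −0.75 with LPS + MSU, so their mean is near neither of them. The difference between the 2 was not called (adjusted p = 0.536 by edgeR). *Dusp2* (−0.51, adjusted p = 0.0675), *Dusp10* (−0.29, adjusted p = 0.255), *Dusp16* (−0.10, adjusted p = 0.521) and *Dusp6* (0.06, adjusted p = 0.856) did not pass. *Dusp4* was called in 15 of 15 alternatives, *Dusp5* in 14, *Dusp8* in 12, *Dusp7* in 11 and *Dusp1* in 10. The fit took all libraries as independent, and the methods do not say whether a mouse gave both a resting and a stimulated library. If mice were shared, the SEs of this mean could be too small, which was not tested and which no alternative addressed. The number of members called was 1 without the first *Ncoa6*-sufficient library with medium (*Dusp4*), and 2 (*Dusp4* and *Dusp5*) without the second of these or without the first *Ncoa6*-sufficient library with LPS + MSU. The members called thus include nuclear phosphatases in both directions, *Dusp4* up and *Dusp1* and *Dusp5* down.

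**Figure D5:**
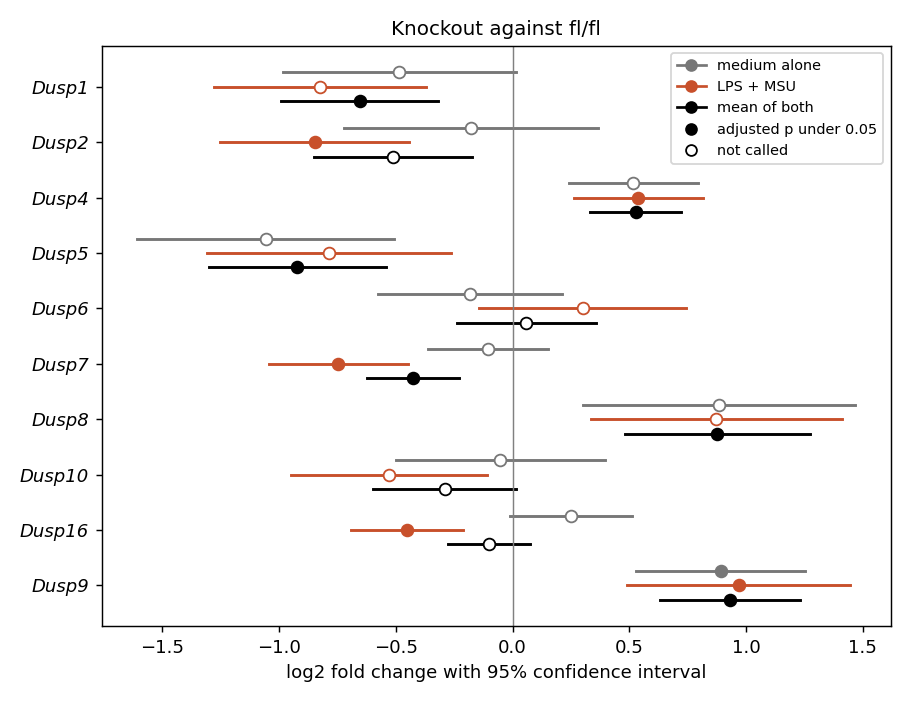
Log2 fold change of *Ncoa6*-KO against *Ncoa6*-sufficient BMDMs (x axis) for the 9 members and *Dusp9*, with medium alone (grey), with LPS + MSU (orange) and as the mean of both (black), with 95% confidence intervals from edgeR; filled points were called. *Dusp9* is called in all 3, *Dusp4* with LPS + MSU and in the mean, and no member with medium alone.

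Whether the response to LPS + MSU differed between the genotypes was tested as the difference of the 2 knockout effects. No member was called, and no gene among the 17625 by edgeR, while DESeq2 called 0 members and 43 genes (0.244%). At an unadjusted p under 0.05, 2 members passed against 5.93% of all genes, *Dusp16* and *Dusp7*. *Dusp16* rose less in the knockout, a difference of −0.70 (95% confidence interval −1.05 to −0.35, adjusted p = 0.406), and *Dusp7* fell further, a difference of −0.64 (−1.03 to −0.25, adjusted p = 0.536). Both were called in 1 of 15 alternatives, without a filter on low counts (adjusted p = 0.00775 and 0.0365), where 1.09% of 24645 genes were. The differences there were about the same (−0.70 and −0.64) and the unadjusted p-values smaller, 5.07e-05 against 0.00116 for *Dusp16* and 3.41e-04 against 0.00444 for *Dusp7*, and the cause was not tested. *Dusp2* differed by −0.67 (−1.35 to 0.01) and *Dusp1* by −0.34 (−1.01 to 0.33). For *Dusp4* the difference was 0.02 (−0.37 to 0.41) and for *Dusp8* −0.01 (−0.68 to 0.66), intervals that leave room for differences of either sign. *Dusp5* (0.27), *Dusp6* (0.48) and *Dusp10* (−0.48) had intervals that held 0 as well.

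*Dusp9*, an X-linked gene for a phosphatase of ERK, was called higher in the knockout in each comparison of genotypes. It counted 90.1 and 92.0 in resting *Ncoa6*-sufficient against 168 and 169 in resting *Ncoa6*-KO libraries, and 37.4 and 37.2 against 68.0 and 78.3 after LPS + MSU. The libraries of the genotypes lay clear of each other in both conditions, with log2 fold changes of 0.89 (SE 0.165, adjusted p = 0.0250) and 0.97 (SE 0.216, adjusted p = 0.0360). Among alternatives with LPS + MSU it was called in 7 of 16, and in the mean of both conditions in 15 of 15.

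Genes that share exon bases with a member could in principle take or lend reads, and the strand setting of the counting is not given in the sources used here. *Dusp5* shares 547 exonic bases with the antisense gene AC137853.2, which held at most 3.17 expected counts in a library. *Dusp8* shares 66 with Gm32786, which was at 0 in all libraries, and *Dusp1* shares 11 with *Ergic1* on the other strand, which held 2322 to 4821 counts.

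The rest of the MAP kinase pathway was read from lists chosen by function, first for *Ncoa6*-KO against *Ncoa6*-sufficient BMDMs within each culture condition. Over all genes, this comparison called 1.88% with medium alone and 3.59% with LPS + MSU. In neither condition was any of 10 tested MAP kinases, 7 MAP kinase kinases or 17 MAP3 kinases and TAK1 adaptors called between genotypes. The same held for 8 tested feedback inhibitors of ERK (Sprouty, Spred and Ras GTPase-activating proteins). At the shares over all genes, none called in lists this short does not show that the pathway was unchanged. Of 10 MAPK-activated kinases, *Rps6ka2*, for an RSK kinase, was higher in the knockout with LPS + MSU (0.61, SE 0.144, adjusted p = 0.0461). Of 12 transcripts known to follow ERK activity, *Ier3* was lower in the knockout in both conditions. Its log2 fold change was −1.21 with medium alone (SE 0.192, adjusted p = 0.0138) and −0.96 with LPS + MSU (SE 0.169, adjusted p = 0.0142). Of 6 factors that act on AU-rich mRNA, *Zfp36* was lower in the knockout with LPS + MSU (−0.82, SE 0.147, adjusted p = 0.0155). Its product tristetraprolin binds AU-rich elements and promotes mRNA decay. None of 16 tested atypical DUSPs was called in either condition, and among 8 other MAP kinase phosphatases only *Dusp9* was.

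Over all genes, the mean knockout effect of both conditions was called lower for 4.59% and higher for 3.71%. By this measure 4 of the 12 ERK-response transcripts were lower and 1 higher. These were *Ier3* (−1.08), *Fos* (−0.62), *Phlda1* (−0.93) and *Egr1* (−0.46) on the lower side and *Ccnd1*, for cyclin D1, on the higher (0.75). *Zfp36* (−0.65) and *Zfp36l1* (−0.78) were both lower, *Map3k11* was lower (−0.24), and *Rps6ka2* (0.57) and the atypical phosphatase gene *Dusp18* (0.88) were higher. The median log2 fold change of the ERK-response list was −0.08 and that of the AU-rich list −0.13, against −0.01 over all genes.

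With LPS + MSU against medium alone, genes of every one of these lists were called in both directions in *Ncoa6*-sufficient BMDMs. Over all genes, 55.2% were called. Of the ERK-response transcripts 8 rose and 2 fell, with the largest changes in *Lif* (4.53) and *Phlda1* (2.50). Of the MAPK-activated kinases 3 rose and 6 fell, led by *Mapkapk2*, the p38-activated kinase MK2 (3.18), and *Mknk2* (−2.74). The MAP kinase kinases had 2 higher and 3 lower, with *Map2k6*, an activator of p38, at −2.88 and *Map2k1*, an activator of ERK, at 1.68. The MAP kinases had 2 higher and 3 lower (*Mapk14* −0.89, *Mapk7* −0.77), and the MAP3 kinases and adaptors 4 higher and 9 lower (*Map3k1* −2.27, *Map3k4* −1.87). *Zfp36* rose (3.10) while its relative *Zfp36l1* fell (−3.36), in a list with 2 higher and 3 lower. The feedback inhibitors had 4 higher and 3 lower, with *Spry1* (2.52) and *Spred1* (2.48) on top. Of the atypical DUSPs 3 rose and 9 fell, the largest called change of a gene with counts in both conditions being *Dusp18* (−3.39). *Dusp27* was at 0 in the stimulated libraries and at a mean of 4.35 counts at rest. The other MAP kinase phosphatases had 4 higher and 3 lower (*Ptpn7* −2.03, *Ppm1d* −1.76). In *Ncoa6*-KO BMDMs 8 ERK-response transcripts rose and 2 fell, and 4 MAPK-activated kinases rose and 4 fell.

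For the members called between genotypes with LPS + MSU, the genes with the nearest profile over the 8 libraries were found among 11218 tested genes that averaged 50 or more normalized counts. Likeness was the root mean square difference of centred log2 values, where a smaller value is nearer. *Dusp4* was nearest to *Cavin1* (0.0982), *Prdx1* (0.106) and *Spp1* (0.121), and *Dusp16* to *Hivep2* (0.129), *Abcb1a* (0.135) and *Gramd1a* (0.139). *Dusp7* was nearest to *Cdk20* (0.145) and *Elmsan1* (0.147), and *Dusp2* to *Glipr2* (0.150), *Tnfrsf8* (0.172) and *Cemip2* (0.176). None of the neighbours named is a MAP kinase phosphatase. All 8 libraries are shared by the genes compared, so the values describe these libraries only.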

How the data were processed

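The authors made stranded poly(A) libraries (TruSeq Stranded mRNA, paired reads), aligned them with STAR 2.7.3a to GRCm38 and deposited expected counts per gene from RSEM 1.3.3, with no normalization. MultiQC and DESeq2 are also named in the submitters' processing notes. Counts were rounded, and genes with a sum of at least 10 over 8 libraries were kept (17625). edgeR 4.0.16 (R 4.3.3, limma 3.58.1) fitted the 4 groups with TMM factors and quasi-likelihood, with 4 residual degrees of freedom. Genes were called at a Benjamini-Hochberg adjusted p under 0.05 over all genes. With 2 libraries against 2, no exact permutation p can go below 0.333, and the libraries of a group came from different mice, per the study's methods, which do not say whether a mouse gave both a resting and a stimulated library. Normalized counts were scaled to the mean effective library size, 29332189. Exon lengths, positions and overlaps came from GENCODE M21 on GRCm38, another release than the authors used. The 6 motifs were searched on both strands of 32851 RefSeq windows. The members, pathway and marker lists (macrophage, neutrophil, dendritic, B, T and NK, stromal, endothelial, mast cell or basophil, osteoclast) and the rule for named genes were chosen with earlier results of these data known. By this rule the text names all members, *Dusp9*, *Ncoa6*, pathway genes called between genotypes (at most 4 a list), the 2 largest called changes per list with LPS + MSU, and the 3 nearest profiles of the members called, of which 1 is not reported here. Alternatives were DESeq2 1.42.0, its size factors, library totals, filterByExpr, no filter, limma-voom, the replicate number as a block, only the 4 libraries compared, and leaving out each library. The block was a common term for the replicate number in both genotypes, whose mice differ, so it did not model a mouse. The code was tested on simulated data.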

Additional observations from a re-analysis of the deposited data

How the results depend on the processing

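Over 16 alternatives the members called higher or lower by LPS + MSU were 9 in *Ncoa6*-sufficient and 8 or 9 in *Ncoa6*-KO BMDMs, except with library totals, which took *Dusp4* in both genotypes and *Dusp5* in *Ncoa6*-sufficient BMDMs below the threshold and brought in *Dusp6* in *Ncoa6*-KO BMDMs. The calls between genotypes moved more, and the cause was not tested. With medium alone 2 members were called by DESeq2, 4 without a filter and 2 with the replicate block, and 0 to 1 with a library left out. With LPS + MSU 7 were called without a filter, 2 by limma-voom, 7 with the replicate block and 0 with only the 4 libraries compared (347 genes of all), and 0 to 4 with a library left out. In the interaction 2 members were called without a filter. For the mean of both conditions the members called ranged from 1 to 6 with a library left out.

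Over all genes, 1152, 1611, 269 and 2381 were called without a filter with medium alone, with LPS + MSU, in the interaction and in the mean of both conditions, against 331, 632, 0 and 1463. With the replicate block these were 1023, 1532, 86 and 2479, and DESeq2 called 43 in the interaction. With a library left out they ranged over 22 to 351, 49 to 765, 0 to 16 and 534 to 1363. The replicate numbers were not taken as pairs, since the labels do not say what they mark and there are only 2: deviations of same-numbered libraries correlated at 0.257 within *Ncoa6*-sufficient, 0.334 within *Ncoa6*-KO BMDMs and 0.0333 to 0.188 between genotypes, across 11219 genes. The share of calls that were higher was 54.6% with LPS + MSU between genotypes against 40.8% by DESeq2 and 68.8% with library totals, 44.8% and 47.5% for LPS + MSU against medium in the 2 genotypes against 20.6% and 21.4% with library totals, and 44.7% in the mean of both conditions against 59.2%. DESeq2's size factors shifted the median of all genes by 0.11 in the response of *Ncoa6*-sufficient BMDMs.

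Of 940 values of single genes under alternatives, 20 changed sign, none of them called. In the interaction *Dusp4* was at −0.0341 by DESeq2 and −0.0337 with its size factors, and *Dusp8* at 0.0211 with library totals, 0.0387 by limma-voom and 0.00648 with the replicate block. With a library left out these 2 ranged over −0.187 to 0.118 and −0.280 to 0.292, *Dusp1* over −0.709 to 0.0143, *Dusp5* over −0.0955 to 0.628 and *Dusp9* over −0.0682 to 0.123. Leaving out a library put *Dusp10* with medium alone at −0.114 to 0.0128 and *Dusp6* in the mean of both conditions at −0.0707 to 0.251. Depth limits *Dusp8*, at 31 to 115 expected counts in a library, and *Dusp9*, at 27 to 56 in the stimulated ones.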
